A study of Mus musculus with 9 samples.

Results

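The lungs of mice that breathed IQOS aerosol for 6 months were compared with those of mice that breathed fresh air for as long. IQOS is a device that heats a tobacco stick without burning it, and its aerosol carries nicotine and volatile compounds. The comparison was made of the 3 arrays titled for IQOS and the 3 titled for air, 6 of the 9 arrays of the series. All mice were male, of strain C57BL/6J and 12 weeks old when exposure began, and the IQOS aerosol was given at 3.5%. The other 3 arrays came from mice given 3.5% cigarette smoke (CS) over the same 6 months, and they are used below only to place the IQOS values. Total RNA of whole lung was labelled with Cy3 and hybridised to single-colour Agilent arrays. The arrays are named by group and labelled replicate (air 1 to 3, IQOS 1 to 3, CS 1 to 3). The labels do not say whether each array came from a separate mouse, so p-values measure only the spread between these samples.

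The 3 IQOS arrays alone filled the second slide and were scanned in the second scan, whereas all air and CS arrays lay on the first. The slide and the IQOS exposure therefore cannot be told apart in any IQOS against air difference given here. The arrays were alike in quality: 64.31% to 67.06% of 56605 probes were well above background in air and 66.03% to 68.79% in IQOS, the 75th percentile of the signal lay between 1054 and 1098 units on these 6 arrays, and 0 spots were saturated. The median net signal of 308 negative control spots was 0.5 to 6.5 units in air and -0.5 to 3 in IQOS. In such bulk samples, fewer cells of a type and less RNA per cell cannot be told apart. All 10 alveolar type II markers, all 5 club cell markers, all 9 endothelial markers and 8 of 9 alveolar type I markers were tested and well above background on all 6 arrays. Heart muscle markers (5 of 5) were also above background, with a summed level of 119 to 218 in air and 146 to 220 in IQOS. A level is throughout a signal divided by the 75th percentile of its array, and levels of different probes are not compared.

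Inhaled tobacco products meet the airway epithelium and the alveolar macrophages first. Combustion products such as polycyclic hydrocarbons bind the aryl hydrocarbon receptor (AhR), which turns on cytochrome P450 genes. Oxidants and electrophiles release the transcription factor NRF2, which turns on glutathione and thioredoxin genes, and misfolded proteins in the endoplasmic reticulum (ER) set off the unfolded protein response, which raises ER chaperones and foldases. The title of the series names apoptosis and emphysema, so genes of cell death, of elastin breakdown and of the alveolar matrix were described as well.

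Of 37258 tested probes, 1387 (3.72%) differed between IQOS and air at an adjusted p under 0.05 (limma, Benjamini-Hochberg), 1022 (2.74%) higher in IQOS and 365 (0.98%) lower. With 1 probe for each of 16593 genes with a symbol, 330 genes (1.99%) rose and 147 (0.886%) fell. The values of IQOS and air did not overlap in any of these 477, nor in 4659 of all 16593 genes. With 3 arrays a group a call nearly implies this, so it adds no support to the calls. Most changes were small: 28 genes rose and 7 fell by at least 2-fold. At an unadjusted p under 0.05 (limma), 9.85% of the 16593 genes were higher in IQOS and 10.5% lower. A change above 0 was found in 7857 of them and a change below 0 in 8736. The counts of the gene lists below are to be read beside these shares. With normexp background correction 2621 probes were called and 54.7% of them were higher in IQOS, against 73.7% in the calls above. The count of called probes was lower when single arrays were left out. It fell to 125 without air 1, to 159 without IQOS 2 and to 287 without air 3. It lay at 507 without IQOS 3, 662 without IQOS 1, 699 without air 2 and 669 without CS 2. Each such fit also has fewer arrays, and how much of the loss comes from that was not tested.

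**Figure D1:**
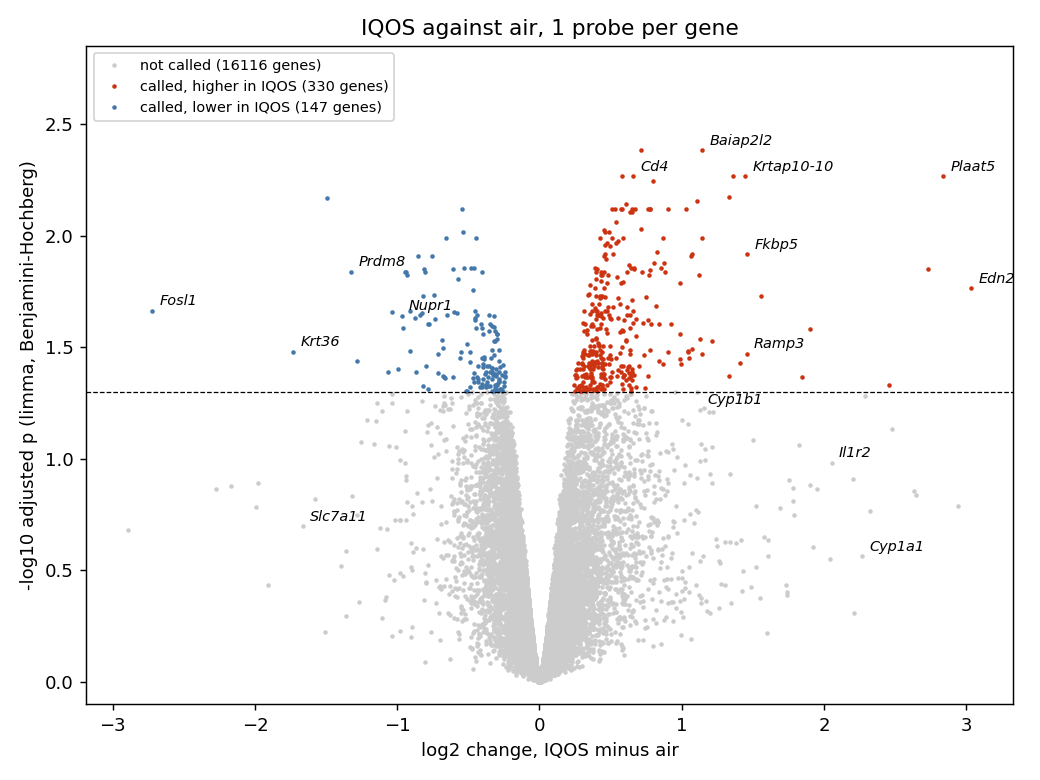
Change of each of 16593 genes between IQOS and air (x axis, log2) against the adjusted p of limma (y axis, -log10, with the dashed line at 0.05). The 330 genes called higher (red) outnumber the 147 called lower (blue), and Cyp1a1, Il1r2 and Slc7a11 have large changes that were not called.

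The 15 largest rises included genes of vascular peptides, lipid metabolism, hormone response and host defence. Plaat5, an acyltransferase of membrane phospholipids, had a level of 0.265, 0.273 and 0.34 in air and of 1.53, 2.74 and 2.14 in IQOS. It rose by 2.84 ± 0.26 on the log2 scale (SE, n = 3 against 3; limma adjusted p = 0.00543), a 7.16-fold change, with no overlap between the groups. It was also above CS, where it lay between 0.246 and 0.437 (IQOS minus CS 2.60, adjusted p = 0.00277). Edn2, the vasoconstrictor peptide endothelin 2, was not well above background on any air array (0.00552, 0.00829 and 0.00718) and was above it on all IQOS arrays (0.047, 0.0718 and 0.0536). It was at least 2.27-fold higher in IQOS (adjusted p = 0.0172), a lower bound set against the detection limit of the air arrays as all such bounds here. Edn2 and, below, Bpifa3, Eddm3b, Olfr1026 and Pdzd7 entered the test only because all IQOS arrays were above background. Neither air nor CS was so on every array. Their place among the rises is therefore partly set by how probes were chosen for testing. The Edn2 call was lost without air 1, air 3, IQOS 2 or IQOS 3 (adjusted p up to 0.0775). Bpifa3, of a family of secreted lipid-binding proteins of mucosal surfaces, was at least 2.93-fold higher in IQOS (adjusted p = 0.0467), and its call did not survive when any of the 9 arrays was left out (adjusted p 0.0664 to 0.133).

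Fkbp5, a co-chaperone of the glucocorticoid receptor and a standard glucocorticoid-induced gene, had a level of 3.56, 5.38 and 4.56 in air and 14.6, 13 and 9.58 in IQOS. It rose by 1.46 ± 0.19 (log2; limma adjusted p = 0.0121), and its call was lost without air 1 (0.0521) or IQOS 2 (0.0557) and with the mean of its tested probes (1.02, adjusted p = 0.0833). Fkbp5 was at 12.6 to 14.7 in CS, which did not differ from IQOS beyond the spread (difference -0.18 ± 0.19, adjusted p = 0.581). Ramp3, which pairs with the calcitonin receptor-like receptor to bind adrenomedullin, rose from 2.35 and 2.71 on the 2 air arrays with a value to 6.51, 6.82 and 7.53, by 1.46 ± 0.26 (log2; limma adjusted p = 0.0338). Air 3 was dropped for this gene because its spot was marked as an outlier. Pglyrp1, an antibacterial protein of neutrophil granules, rose by 1.33 ± 0.27 (log2; adjusted p = 0.0425), from 0.577, 0.694 and 0.914 to 1.64, 1.5 and 2.37. The Ramp3 and Pglyrp1 calls were each lost without 7 of the 9 arrays, air 1 to 3, CS 2 and IQOS 1 to 3, with adjusted p up to 0.16 and 0.147.

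4 of the other large rises kept their call without each array and under every other processing tried, as Plaat5 did. Krtap10-10, a keratin-associated protein, was at 1.32 to 1.36 in air and at 3.21, 4.6 and 3.33 in IQOS (1.45 ± 0.13, log2; adjusted p = 0.00543). Baiap2l2, a protein that bends the plasma membrane, was at 2.31, 2.35 and 2.64 in air and 4.9, 6 and 5.27 in IQOS (1.15 ± 0.09; adjusted p = 0.00414). Smg8, a regulator of the kinase of nonsense-mediated RNA decay, was at 0.0236 to 0.0328 in air, where 1 array was above background, and at 0.0693 to 0.0796 in IQOS (1.36 ± 0.13; adjusted p = 0.00543). Cmtm2b, of the chemokine-like factor family, was at 0.0704 to 0.0912 in air and 0.166 to 0.225 in IQOS (1.33 ± 0.14; adjusted p = 0.00671). All 4 were also higher in IQOS than in CS (limma adjusted p 0.00235 to 0.0143). The remaining members of the 15 were Doc2b, a calcium sensor of vesicle release (1.84, adjusted p = 0.043), Pdzd7, a scaffold protein of sensory hair cells (1.12, adjusted p = 0.015), the olfactory receptors Olfr1252 (1.21, adjusted p = 0.0296) and Olfr1026 (at least 1.39-fold higher), and Eddm3b, a secreted epididymal protein (at least 1.04-fold higher, adjusted p = 0.0339). Each of these 5 lost its call without air 1 and IQOS 2. Doc2b, Olfr1252 and Eddm3b also lost it without air 2, air 3 and CS 2, Doc2b without IQOS 1, Olfr1252 without IQOS 3 and Eddm3b without CS 3, IQOS 1 and IQOS 3, and Olfr1026 lost it without air 2, IQOS 1 and IQOS 3. Without 1 array the highest adjusted p was 0.143 for Doc2b, 0.0718 for Pdzd7, 0.114 for Olfr1252, 0.113 for Olfr1026 and 0.114 for Eddm3b. The Pdzd7 call was also lost with normexp, where its change was 0.35 (adjusted p = 0.0618), and with the deposited table (adjusted p = 0.581).

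The 15 largest falls included a transcription factor of AP-1, stress and matrix genes and hair or skin proteins. Fosl1, which encodes the AP-1 subunit FRA1, was at 0.239, 0.258 and 0.362 in air and at 0.0204, 0.0688 and 0.055 in IQOS, where 2 of 3 arrays were above background. It fell by 2.72 on the log2 scale (SE 0.43; limma adjusted p = 0.0217), and its call was lost without any 1 of the air arrays (adjusted p up to 0.0757). CS arrays, at 0.273 to 0.454, did not share this low level (IQOS minus CS -3.09, adjusted p = 0.00775). Nupr1, a small stress-induced nuclear protein, had a level of 108, 86.4 and 117 in air and 45.3, 61.6 and 52.3 in IQOS and fell by 0.97 on the log2 scale (SE 0.16; adjusted p = 0.0229). Its CS levels were lower still, at 29.2, 31 and 37.7 (IQOS minus CS 0.70, adjusted p = 0.034). The Nupr1 call was lost without air 1, air 3 or any 1 of the IQOS arrays (adjusted p up to 0.0932).

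Several genes of secreted and matrix-associated proteins were in this group. Ccn5, a matricellular protein, was at 3.16, 2.51 and 3.09 in air and 1.75, 1.47 and 1.34 in IQOS (-0.95 ± 0.13, log2; adjusted p = 0.0145). Tnc, the matrix glycoprotein tenascin C, was at 0.056, 0.0646 and 0.0575 in air and 0.0328, 0.0262 and 0.0368 in IQOS (-0.91 ± 0.17; adjusted p = 0.0328). Htr2b, the serotonin receptor 2B, was at 0.637, 0.625 and 0.513 in air and 0.37, 0.301 and 0.265 in IQOS (-0.93 ± 0.13; adjusted p = 0.015). All values of these genes in IQOS lay below those in air. Prdm8, of a family of chromatin regulators, fell from 0.354 to 0.39 in air to 0.123 to 0.173 in IQOS (-1.32 ± 0.18; adjusted p = 0.0145), and its CS level of 0.108 to 0.165 did not differ from IQOS beyond the spread (difference 0.04 ± 0.18). Cdh16, a cadherin, was at 1.3 to 1.4 in air and 0.632 to 0.787 in IQOS (-0.94 ± 0.13; adjusted p = 0.0145). These calls too were lost when single arrays were left out. Without air 1 each of these 5 was lost, and so were Ccn5, Tnc, Prdm8 and Cdh16 without air 3. Ccn5, Tnc, Prdm8 and Htr2b were lost without IQOS 2, and Tnc without air 2, IQOS 1 or IQOS 3. Without 1 array the log2 change ran from -1.05 to -0.86 for Ccn5, -1.02 to -0.77 for Tnc and -1.06 to -0.82 for Htr2b. It ran from -1.445 to -1.197 for Prdm8 and from -1.01 to -0.85 for Cdh16. Their highest adjusted p without 1 array was 0.0712 (Ccn5), 0.103 (Tnc), 0.0728 (Htr2b), 0.0667 (Prdm8) and 0.0691 (Cdh16), and with the mean of all its probes Cdh16 changed by -0.23 only (adjusted p = 0.343).

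The rest of the 15 were Krt36, a hair keratin (-1.73 ± 0.32), Pabpc4l, of the poly(A)-binding proteins (-1.28 ± 0.25), Cgref1, a secreted EF-hand protein (-1.06 ± 0.21), the proteolipid neuronatin Nnat (-1.04 ± 0.17), Pbp2, of the phosphatidylethanolamine-binding proteins (-0.96 ± 0.17), Cdsn, the skin adhesion protein corneodesmosin (-0.88 ± 0.14), Tmem63c, a membrane channel protein (-0.87 ± 0.18), and Atp13a5, a cation-transporting ATPase. Krt36, Pabpc4l and Tmem63c were well above background on only 1 of the 3 IQOS arrays, so the size of their falls is uncertain. Under other processing their changes were as small as -0.72, -0.53 and -0.24. Pabpc4l entered the test only because all air arrays were above background, so its place among the falls is partly set by how probes were chosen. Atp13a5 was not well above background in air or in IQOS, so no fold is given and its call (adjusted p = 0.00677) compares signals below background. It was tested because it was above background on all 3 CS arrays. Without air 1 each of the other 7 lost its call, and 5 to 8 of the 9 arrays ended it for Krt36, Pabpc4l, Cgref1, Nnat, Pbp2 and Tmem63c and 4 for Cdsn. Their adjusted p reached 0.0907 (Krt36), 0.1 (Pabpc4l), 0.145 (Cgref1), 0.0773 (Nnat), 0.0846 (Pbp2), 0.0848 (Cdsn) and 0.129 (Tmem63c). The arrays that ended it were air 2 for Krt36, Pabpc4l, Nnat, Pbp2 and Tmem63c, air 3 for Krt36, Pabpc4l, Cgref1, Pbp2, Cdsn and Tmem63c, IQOS 1 for all 7, IQOS 2 for all but Pbp2, and IQOS 3 for all but Cdsn and Tmem63c. CS 1 ended it for Cgref1 and Tmem63c, CS 2 for Krt36, Cgref1 and Tmem63c, and CS 3 for Krt36, Pabpc4l, Cgref1 and Tmem63c.

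**Figure D2:**
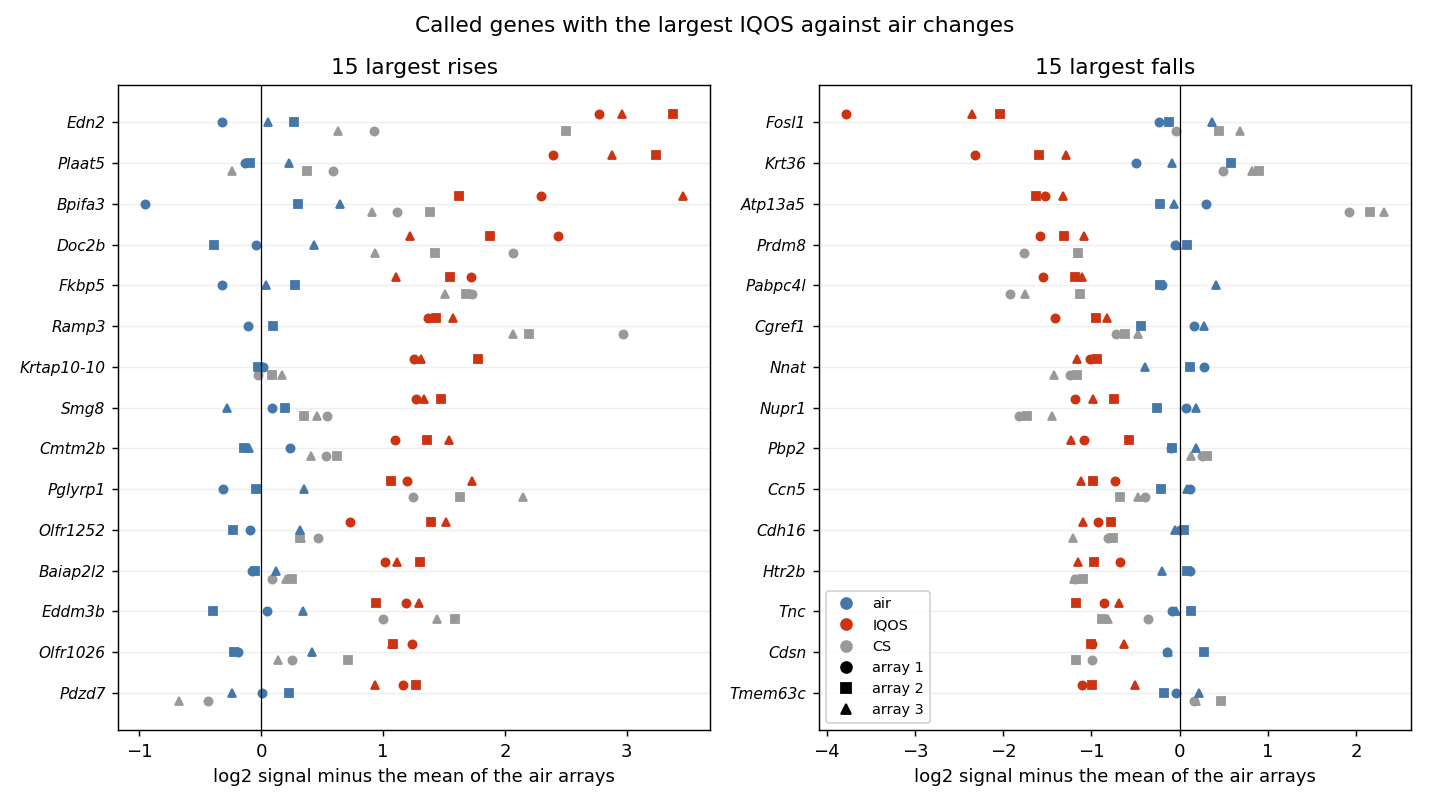
Log2 signal of the 15 largest rises and 15 largest falls on each array, minus the mean of the air arrays (blue air, red IQOS, grey CS; symbols mark the array number). The red symbols lie apart from the blue ones in each gene, as the choice of these genes required. Grey symbols lie with red for Fkbp5, Prdm8, Cdh16 and Htr2b and with blue for Plaat5, Krtap10-10, Baiap2l2 and Fosl1.

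A pair of genes of ER protein folding fell in IQOS. Of 21 tested members of the unfolded protein response, 2 fell (Pdia3 and Pdia6), 0 rose, 19 had a change below 0, and the median change was -0.25 (log2), against -0.01 over all 16593 genes. At an unadjusted p under 0.05, 11 of the 21 were lower and 0 higher, where 10.5% of all genes were lower and 9.85% higher. In 10 members all IQOS values lay below all air values, as in 15.1% of all genes. Pdia3, a disulphide isomerase that folds glycoproteins with calreticulin and calnexin, was at 8.55, 7.97 and 8.11 in air and 4.83, 5.86 and 5.85 in IQOS (-0.58 ± 0.09; limma adjusted p = 0.0223). Pdia6, another disulphide isomerase, was at 76.2, 76.5 and 63 in air and 46.4, 52.8 and 54.4 in IQOS (-0.49 ± 0.10; adjusted p = 0.037).

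Other ER chaperones had values below air without passing the threshold. The co-chaperone Dnajb11 was at 7.58 to 8.35 in air and 6.56 to 6.78 in IQOS (-0.27, adjusted p = 0.0534), the chaperone Hyou1 at 0.186 to 0.198 and 0.116 to 0.159 (-0.45, adjusted p = 0.0792), calnexin (Canx) at 35.1 to 38.8 and 29 to 33.1 (-0.25, adjusted p = 0.085), and Sdf2l1, a partner of the ER chaperone complex, at 1.43 to 1.74 and 0.842 to 1.24 (-0.58, adjusted p = 0.0882). The summed level of the 21 genes was 451, 503 and 406 on air 1 to 3 and 343, 399 and 404 on IQOS 1 to 3, so IQOS 1 was the lowest and air 2 the highest. The median of the list stayed between -0.29 and -0.19 without any 1 array, but no more than 1 member was then called. Pdia3 lost its call without any 1 of the air arrays or without IQOS 2 (adjusted p up to 0.0923), and Pdia6 without any array but air 3 (up to 0.136). No member differed between IQOS and CS, where 9.64% of all probes did (5.71% higher and 3.93% lower in IQOS).

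The promoters of some of these genes hold a known element of the unfolded protein response, shown here as sequence context for the list. The ER stress response element (CCAAT, then any 9 bases, then CCACG, searched on both strands) occurs in the 250 bases before the start site of 35 of 27025 genes (0.13%) in the RefSeq promoter table of build GRCm38.p6. It was found in 8 of the 18 tested members that the table holds, Hspa5, Hsp90b1, Pdia6, Calr, Canx, Dnajc3, Creld2 and Syvn1, with changes between -0.49 and -0.11. Pdia3 has no match in this window. The element is in capitals below, in the windows of Pdia6 (chr12:17266461-17266539, plus strand), of Hspa5, the master ER chaperone (chr2:34771995-34772073, plus strand; change -0.38, adjusted p = 0.168), and of calreticulin, Calr (chr8:84847045-84847123, minus strand, element reversed; change -0.32, adjusted p = 0.114).
Pdia6: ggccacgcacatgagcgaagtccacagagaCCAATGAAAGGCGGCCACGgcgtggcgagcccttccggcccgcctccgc
Hspa5: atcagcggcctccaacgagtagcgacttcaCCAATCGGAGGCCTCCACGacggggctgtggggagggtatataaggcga
Calr: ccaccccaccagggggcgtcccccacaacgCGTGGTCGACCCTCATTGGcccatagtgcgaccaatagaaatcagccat

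The integrated stress response, in which ATF4 turns on amino acid synthesis and stress genes, had 2 called members, both lower in IQOS. Of 17 tested members 2 fell (Nupr1, above, and Phgdh) and 0 rose, where 0.886% of all genes fell and 1.99% rose. At an unadjusted p under 0.05, 7 were lower, as were 10.5% of all genes. A change below 0 was found in 11 of the 17 and in 8736 of all 16593 genes, and the median of the list was -0.33. Phgdh, the first enzyme of serine synthesis, was at 5.02, 3.8 and 4.41 in air and 2.33, 2.5 and 2.52 in IQOS (-0.84 ± 0.14; limma adjusted p = 0.0227). Psat1, the next enzyme of that pathway, was at 3.66, 2.76 and 3.06 in air and 1.29, 1.71 and 1.63 in IQOS (-1.03 ± 0.24; adjusted p = 0.0561). Both groups were apart for both enzymes. Atf5 was at 58.4 to 68.5 in air and 49.3 to 54.7 in IQOS (-0.33, adjusted p = 0.131), and Ddit3, the proapoptotic factor CHOP, at 1.49 to 2.32 and 1.2 to 1.44 (-0.45, adjusted p = 0.194). Atf4 itself was not called (0.09, adjusted p = 0.85). Phgdh lost its call without air 1, air 3 or any 1 of the IQOS arrays (adjusted p up to 0.0842), and 0 members were called without each of these arrays. The ATF4 element TTGCATCA, searched on both strands in the same 250 bases, occurs before the start site of 248 of 27025 genes (0.918%) and of 5 of the 17 members, and in Nupr1 lies as shown in capitals (chr7:126625543-126625610, minus strand).
Nupr1: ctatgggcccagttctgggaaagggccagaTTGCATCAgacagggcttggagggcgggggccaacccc

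The proteasome, the protease that degrades ubiquitin-tagged proteins, had 2 called subunits, both lower in IQOS. Of 26 tested genes 25 had a change below 0, 13 were lower at an unadjusted p under 0.05, 2 fell and 0 rose, and the median was -0.14. In 21 of them all IQOS values lay below all air values (15.1% over all genes). Over all genes 10.5% were lower unadjusted and 0.886% fell. Psmd4, the ubiquitin receptor of the regulatory particle, was at 33.3, 31.2 and 32 in air and 26.3, 25.7 and 26.4 in IQOS (-0.30 ± 0.05; limma adjusted p = 0.0291). Psma6, a core subunit, was at 22, 21.1 and 22.2 in air and 18.5, 18.5 and 18.1 in IQOS (-0.25 ± 0.05; adjusted p = 0.0454). The core subunits Psma4 (-0.24, adjusted p = 0.0507), Psmb4 (-0.20, adjusted p = 0.0837) and Psma5 (-0.24, adjusted p = 0.0953) and the lid subunit Psmd11 (-0.28, adjusted p = 0.0823) did not pass. Of the 4 tested probes of Psma4, however, 1 that does not stand for the gene here was called lower. The summed level was 471 to 494 in air, 430 to 443 in IQOS and 480 to 499 in CS. Without any 1 of the air or IQOS arrays 0 of the 26 genes were called: Psma6 was no longer called when any of the 9 was left out (its adjusted p reached 0.16) and Psmd4 without each air and IQOS array and without CS 2 (up to 0.122), while the median stayed between -0.18 and -0.12. The 28 tested ribosomal protein genes had a median of 0.02 and 0 calls, with 3 higher and 0 lower at an unadjusted p under 0.05.

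**Figure D3:**
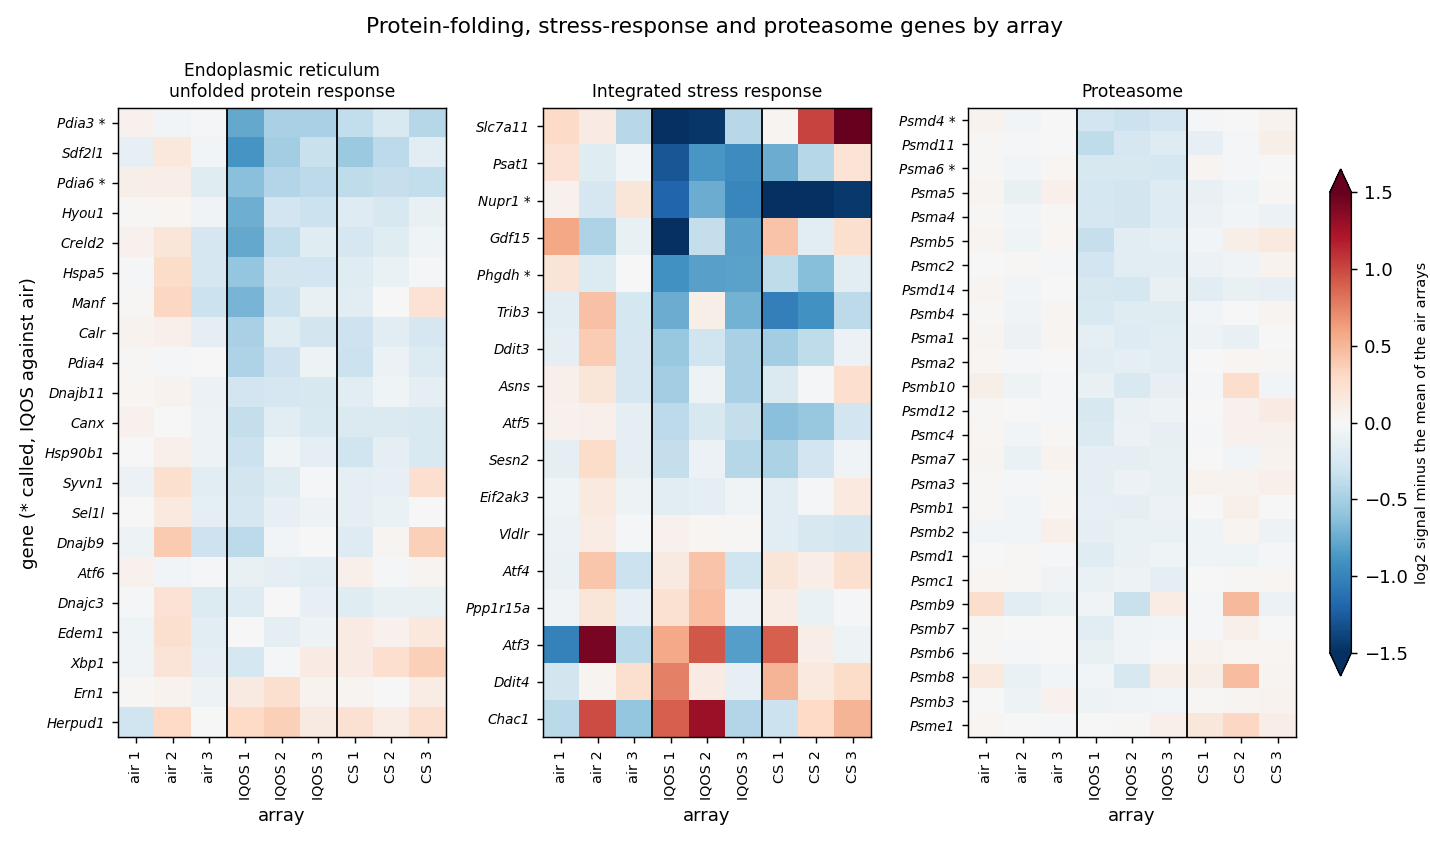
Log2 signal minus the mean of the air arrays (colour scale, clipped at 1.5) for the ER, integrated stress response and proteasome genes (rows) on the air, IQOS and CS arrays (columns); an asterisk marks a called gene. Nearly all ER and proteasome rows are blue on the IQOS arrays, IQOS 1 is the darkest for ER genes, and Atf3 and Chac1 are high on air 2.

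Targets of the AhR were not called as a group, and a single array carried the largest value. Of 17 tested AhR targets and phase I enzymes 0 rose and 0 fell, 3 were higher and 2 lower at an unadjusted p under 0.05, and the median was 0.18. Cyp1a1, the classical smoke-induced P450, was at 0.163, 0.238 and 0.241 in air, at 0.335 and 0.364 on IQOS 1 and 2, and at 8.51 on IQOS 3. The IQOS values lay above all air values, yet the change of 2.27 ± 1.09 was not called (adjusted p = 0.273), and without IQOS 3 it was 0.73 (adjusted p = 0.0857). Cyp1b1, a related P450, was at 0.531, 0.448 and 0.632 in air and 0.833, 1.05 and 1.79 in IQOS (1.13 ± 0.27; adjusted p = 0.0604). IQOS 3 also had the highest Ahrr, the AhR repressor, at 0.0309 against 0.0139 and 0.0174, and the highest Nqo1, a quinone reductase, at 0.71 against 0.235 and 0.266. In CS these genes were at 99.7 to 103 (Cyp1a1), 20.7 to 25.6 (Cyp1b1), 0.67 to 1.17 (Ahrr) and 1.76 to 2.75 (Nqo1), each above IQOS (limma adjusted p = 0.013, 0.000524, 0.000371 and 0.0108). Por, the electron donor of P450s (0.34, adjusted p = 0.0541), was above air on all IQOS arrays but not called.

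A single NRF2 target was called, and it fell. Of 31 tested 0 rose and 1 fell, 24 had a change below 0, 6 were lower at an unadjusted p under 0.05 and 0 higher, and the median was -0.12 (-0.06 without IQOS 1 and -0.25 without IQOS 3). Abcc1, an exporter of glutathione conjugates, fell from 1.17, 0.932 and 1.05 to 0.566, 0.614 and 0.71 (-0.74 ± 0.12; limma adjusted p = 0.0237), a call lost without air 1, air 3, IQOS 1 or IQOS 2 (adjusted p up to 0.0912). Srxn1, sulfiredoxin, was at 21.1, 24.8 and 14.6 in air and 5.93, 9.26 and 12.4 in IQOS (-1.16, adjusted p = 0.0855). Gclm, the regulatory subunit of glutathione synthesis, was at 8.82, 6.21 and 7.55 in air and 3.97, 4.79 and 6.11 in IQOS (-0.61, adjusted p = 0.156), and Slc7a11, the cystine importer, at 0.981, 0.871 and 0.602 and at 0.0923, 0.291 and 0.598 (-1.67, adjusted p = 0.201). The IQOS values were below air in each of these 4 genes, and IQOS 1 was the lowest array in each. Hmox1, haem oxygenase 1, overlapped widely, with 25.2, 43.1 and 8.25 in air and 7.13, 18.6 and 20.7 in IQOS. Against CS, 16 of the 31 were lower in IQOS and 1 higher, where 5.18% of all genes were lower and 4.94% higher. Among them were Txnrd1, thioredoxin reductase (IQOS minus CS -1.31, adjusted p = 0.00428), Srxn1 (-1.81, adjusted p = 0.0157), Gclc, the catalytic subunit of glutathione synthesis (-1.69, adjusted p = 0.0172), and Gclm (-1.09, adjusted p = 0.023).

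**Figure D4:**
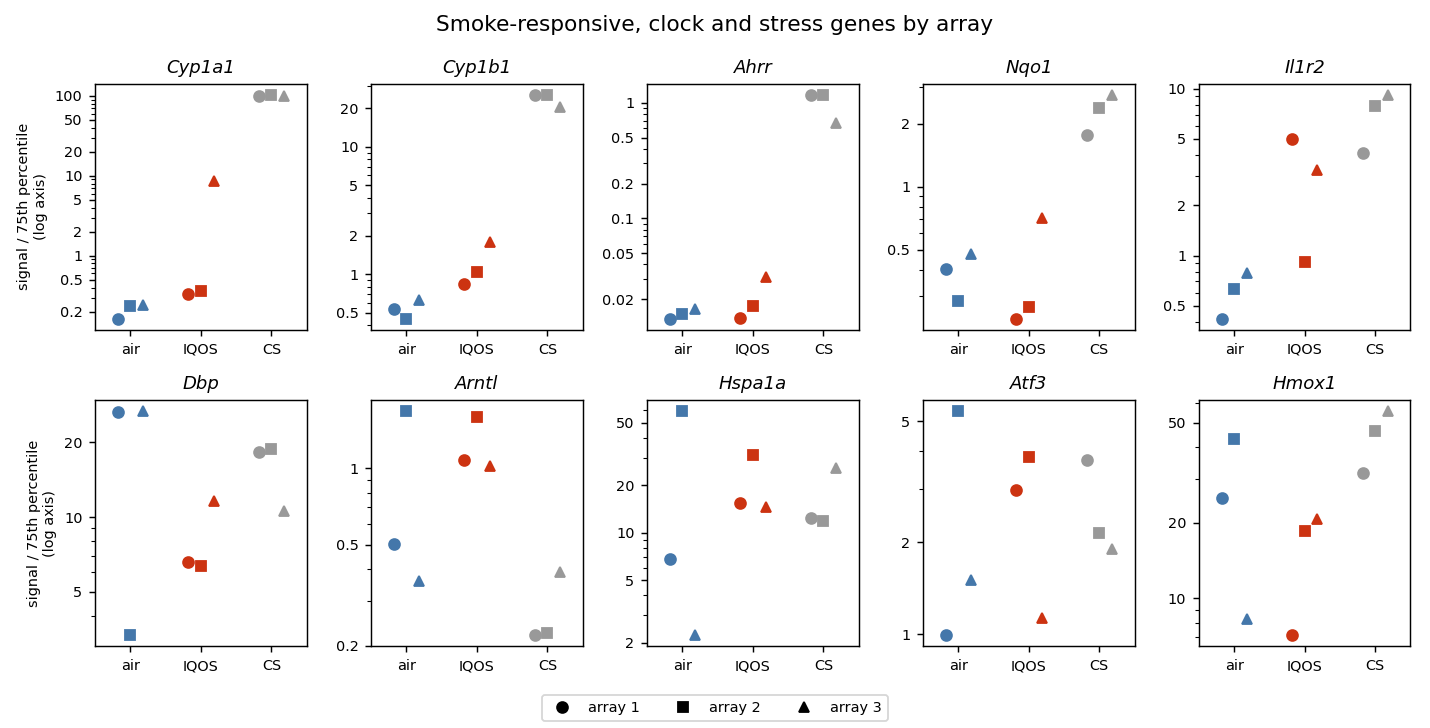
Level (signal over the 75th percentile of the array, log axis) of 10 genes on each air (blue), IQOS (red) and CS (grey) array. IQOS 3 stands above IQOS 1 and 2 for Cyp1a1 (8.51 against 0.335 and 0.364) and is the highest IQOS array for Cyp1b1, Ahrr and Nqo1, IQOS 2 is the low one for Il1r2, and air 2 stands apart from air 1 and 3 for Dbp, Arntl, Hspa1a and Atf3.

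Among 18 glucocorticoid-responsive genes 1 rose (Fkbp5, above) and 0 fell, where 1.99% of all genes rose. At an unadjusted p under 0.05, 6 were higher, as were 9.85% of all genes. The median of the list was 0.33 (0.18 without air 1 and 0.21 without IQOS 1). The kinase Map3k6 was at 9.44 to 14.9 in air and 14.4 to 19.2 in IQOS (0.58, adjusted p = 0.143), and the lipase inhibitor Angptl4 at 28.9 to 39.4 and 39.7 to 43.6 (0.34, adjusted p = 0.193). Per1, both a clock gene and a glucocorticoid target, was at 21.2 to 31.4 in air and 20.5 to 33.1 in IQOS (0.03, adjusted p = 0.958). Clock genes are given here because air 2 differed from air 1 and 3 in them. The clock output gene Dbp was at 26.5, 3.35 and 26.6 in air and 6.59, 6.38 and 11.6 in IQOS, and Arntl (Bmal1), the core clock activator, at 0.502, 1.67 and 0.36 and at 1.08, 1.58 and 1.02. With all arrays 0 of 18 clock genes were called by limma, 1 being higher and 0 lower at an unadjusted p under 0.05. Without air 2, 1 rose and 3 fell, with Nfil3, a clock repressor, at 1.42 (adjusted p = 0.035), Per3 at -1.08 (adjusted p = 0.035), Dbp at -1.76 (adjusted p = 0.0538) and Arntl at 1.5 (adjusted p = 0.0655). Without air 2 the median of the glucocorticoid list was 0.36, and Fkbp5 was still called. The differences of these clock genes were wider in that fit, so it does not separate Fkbp5 from them. A link between clock genes and the glucocorticoid list was not tested.

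Air 2 was apart in heat shock genes as well. Hspa1a, the inducible HSP70, was at 6.8, 59.1 and 2.23 in air and 15.5, 31.3 and 14.6 in IQOS (0.99, adjusted p = 0.619; 2.30 and 0.0948 without air 2). The 20 heat shock genes held 0 calls by limma (0 higher and 1 lower at an unadjusted p under 0.05), with a median of -0.14 that moved to 0.02 without air 2, -0.01 without IQOS 1 and -0.34 without air 3, and a summed level of 747, 1210 and 569 in air and of 527 to 806 in IQOS. Of 26 immediate early genes 21 had a change above 0 and 1, Fosl1, fell. The median was 0.25 (0.15 without IQOS 1, 0.39 without IQOS 3), and Fosl2, the sister gene of Fosl1, was at 4.44 to 5.6 in air and 5.66 to 9.47 in IQOS (0.64, adjusted p = 0.118). Of the 8 tested metallothionein and zinc genes 0 were called by limma (2 higher and 0 lower at an unadjusted p under 0.05), and Mt1, a metal-binding stress protein, was at 51.1 to 57.8 in air and 63.5 to 84 in IQOS (0.36, adjusted p = 0.124), against 161 to 176 in CS.

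A pair of T cell markers rose. Cd4, the coreceptor of helper T cells, was at 2.17, 2.06 and 2.28 in air and 3.26, 3.53 and 3.49 in IQOS (0.66 ± 0.06; limma adjusted p = 0.00543). The call was kept without each array, and Cd4 was also above CS, at 2.36 to 2.46 (IQOS minus CS 0.50, adjusted p = 0.00558). Of the 2 tested probes of Cd4, 1 was called higher. Icos, a costimulatory receptor of activated T cells, was at 0.312, 0.42 and 0.399 in air and 0.762, 0.561 and 0.612 in IQOS (0.78 ± 0.14; adjusted p = 0.0327). Leaving out IQOS 1, 2 or 3, air 1, air 3 or CS 2 ended the Icos call (adjusted p up to 0.0976). Of 25 T and NK cell markers 2 rose and 0 fell, where 1.99% of all genes rose and 0.886% fell. In 18 of the 25 the change was above 0, and the median was 0.27 (0.06 without IQOS 1 and 0.46 without IQOS 2). The invariant chain Cd3e of the T cell receptor was at 2.2 to 2.25 in air and 3.66, 2.61 and 3.01 in IQOS (0.46, adjusted p = 0.19). The inhibitory receptor Ctla4 was at 0.0199 to 0.0321 and 0.0351 to 0.0409 (0.55, adjusted p = 0.108), and interferon gamma, Ifng, at 0.0698 to 0.119 and 0.136 to 0.185 (0.75, adjusted p = 0.0767). Over the 25 T and NK cell markers the summed level was 60.1, 51.4 and 55.4 on air 1 to 3 and 79.5, 47.3 and 58.4 on IQOS 1 to 3. IQOS 2 thus lay below all air arrays and only IQOS 1 above them. Over the 6 defining T cell markers the summed level was 12.7 to 13.2 in air and 14.4 to 19.8 in IQOS. The 4 NK markers summed to 16.7 to 22.3 and 11.5 to 21.3, and Ncr1, an NK activating receptor, was at 0.109 to 0.142 and 0.06 to 0.115 (-0.56, adjusted p = 0.221).

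Neutrophil genes were high on 2 of the 3 IQOS arrays. Of 20 tested markers 1 rose and 0 fell, where 1.99% of all genes rose and 0.886% fell. In 19 of the 20 the change was above 0, with the largest list median of those described, 0.95 (0.61 without IQOS 3, 1.43 without IQOS 2). The summed level was 203, 217 and 262 on air 1 to 3 and 471, 215 and 477 on IQOS 1 to 3, so IQOS 2 lay within the air range. The decoy interleukin 1 receptor Il1r2 was at 0.418, 0.628 and 0.785 in air and 4.97, 0.919 and 3.25 in IQOS (2.06 ± 0.61; adjusted p = 0.104), and the lectin Clec4e at 0.265, 0.353 and 0.443 and at 2.08, 0.425 and 1.57 (1.69, adjusted p = 0.167). The calprotectin subunits S100a8 and S100a9 were at 80.2, 15.4 and 80.9 and at 216, 44.4 and 222 in IQOS, against 19.1 to 31.5 and 53.4 to 87.6 in air, and were not called (adjusted p = 0.424 and 0.393). They are named here after their values were seen. Elane, neutrophil elastase, was the 1 called marker and did not follow this split. It was at 0.822, 0.796 and 0.785 in air and 1.18, 1.62 and 1.34 in IQOS (0.77 ± 0.11; limma adjusted p = 0.0142), above CS, at 0.844 to 0.869, as well (adjusted p = 0.0113). Its call was lost without air 1 (0.0665) or air 3 (0.0563).

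Macrophage and B cell genes held no calls. Of 19 alveolar macrophage markers 0 were called by limma (1 higher and 1 lower at an unadjusted p under 0.05), and the median was 0.08 (0.01 without air 2). Marco, a scavenger receptor, was at 3.28, 1.68 and 2.17 in air and 6.2, 5.05 and 4.75 in IQOS (1.21 ± 0.34; adjusted p = 0.0884) and at 11.6 to 25.7 in CS. The 24 genes of lipid-laden and lysosomal macrophages also had 0 calls against air (0 higher and 3 lower unadjusted). Against CS, 15 of them were lower in IQOS and 1 higher, where 5.18% of all genes were lower and 4.94% higher. Gpnmb, a glycoprotein of lipid-filled macrophages, was at 0.494 to 0.664 in air, 0.543 to 0.664 in IQOS and 2.1 to 3.12 in CS (IQOS minus air 0.04, adjusted p = 0.931; IQOS minus CS -2.12, adjusted p = 0.00175). Lgals3, galectin 3, was at 46.9 to 60.8 in air and 39.4 to 43.9 in IQOS (-0.36, adjusted p = 0.103) and lower than in CS (-1.05, adjusted p = 0.00273). Of 19 B cell and plasma cell markers 0 were called (0 higher and 1 lower unadjusted), with a median of -0.32 that ran from -0.56 without IQOS 1 to -0.05 without air 1 and -0.03 without IQOS 2. Among 33 tested cytokines and chemokines 0 were called (5 higher and 0 lower unadjusted), the median was 0.18 (0.1 without IQOS 3), and Cxcl9, an interferon-induced chemokine for T cells, was at 0.0261 to 0.0386 in air and at 0.0678, 0.0639 and 0.423 in IQOS (1.95, adjusted p = 0.136; 1.06 and 0.0371 without IQOS 3).

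Genes of elastin breakdown and matrix were next. Of 24 tested elastin-degrading proteases and their inhibitors, Elane was the 1 called. Prtn3, proteinase 3 of neutrophils, was at 0.0438, 0.0332 and 0.0581 in air, all above background, and at 0.0235, 0.0154 and 0.0305 in IQOS, where 1 array was (-0.98 ± 0.29; adjusted p = 0.101). All its IQOS values lay below air, as in 15.1% of all genes. Of the settings tried only the replicate block gave a call (limma adjusted p = 0.0459). Prtn3 entered the test only because all air arrays were above background, so its fall is partly set by how probes were chosen for testing. Mmp12, macrophage elastase, was at 0.121 to 0.137 in air and at 0.0928 to 0.167 in IQOS (-0.12, adjusted p = 0.891), the sheddase Adam8 at 5 to 7.19 and 7.91 to 14.5 (0.74, adjusted p = 0.126), and the metalloprotease inhibitor Timp1 at 2.14 to 2.71 and 1.44 to 2.29 (-0.48, adjusted p = 0.273). The 30 elastic fibre and collagen genes held 0 calls by limma (0 higher and 8 lower at an unadjusted p under 0.05), although 22 had a change below 0, 12 were below air on all IQOS arrays (15.1% over all genes) and the median was -0.14 (-0.08 without air 2). Col3a1, collagen III, was at 11.5, 11.7 and 11.6 in air and 6.92, 8.05 and 8.53 in IQOS (-0.57 ± 0.16; adjusted p = 0.0949), and Col1a2, collagen I, at 46.8 to 55.1 and 36.7 to 40.8 (-0.36, adjusted p = 0.185). In CS Col3a1 was at 4.7 to 7.47 and Col1a2 at 25.5 to 36.8. The summed level of 8 fibroblast markers was 137 to 154 in air and 121 to 133 in IQOS, and that of 7 smooth muscle markers 106 to 119 and 81.5 to 104. The fibroblast markers include Col1a1, Col1a2 and Col3a1. That sum therefore falls when these collagens do and is no separate reading of fibroblast content. The part of fibroblasts and smooth muscle in the collagen values was not tested. Of 24 fibroblast and matricellular genes Tnc alone fell and 0 rose.

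Of 33 endothelial genes 1 rose and 0 fell. Flt4, the VEGF receptor 3 of lymphatic vessels, was at 0.102, 0.123 and 0.0944 in air and 0.158, 0.172 and 0.145 in IQOS (0.58 ± 0.11; limma adjusted p = 0.0314). Leaving out IQOS 1, 2 or 3, air 1, air 3 or CS 2 ended the Flt4 call (adjusted p up to 0.121). Lyve1, a hyaluronan receptor of lymphatic vessels and some macrophages, was at 9.97 to 15 in air and 16.7 to 23.4 in IQOS (0.63, adjusted p = 0.0882). Vwf, von Willebrand factor, was at 40.2 to 44.8 and 52.1 to 58 (0.41, adjusted p = 0.0516). Aplnr, the apelin receptor, was at 0.574 to 0.699 in air and 0.393 to 0.491 in IQOS (-0.50, adjusted p = 0.0699) and lower again in CS, at 0.217 to 0.274 (IQOS minus CS adjusted p = 0.0074). The median of the list was -0.02, and it was above 0 without air 2 (0.05) or IQOS 3 (0.02).

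No gene of the apoptotic machinery was called between IQOS and air. Of 13 proapoptotic BCL2 family genes, 17 antiapoptotic genes, 19 caspase and apoptosome genes and 17 death receptor genes, 0 were called in either direction by limma, and at an unadjusted p under 0.05 these lists held 0, 3, 0 and 1 higher and 1, 0, 0 and 3 lower. Over all genes 1.99% rose and 0.886% fell, and 9.85% were higher and 10.5% lower unadjusted. With calls so rare, 0 calls in lists of this size do not set these genes apart from the rest. Bax, which permeabilises mitochondria, was at 7.25, 6.44 and 6.87 in air and 6.84, 6.48 and 6.37 in IQOS (-0.06 ± 0.07; adjusted p = 0.654). Its partner Bak1 was at 3.04 to 3.28 and 3.33 to 3.79 (0.14, adjusted p = 0.398), the antiapoptotic Bcl2 at 3.64 to 4.14 and 3.1 to 5.34 (0.04, adjusted p = 0.945), and the death receptor Fas at 8.3 to 9.58 and 8.25 to 11 (0.02, adjusted p = 0.927). The survival kinase Pim1 was above air on all IQOS arrays, at 6.95 to 7.68 against 5.08 to 6.6 (0.38, adjusted p = 0.101), and Traf2, an adaptor of the TNF receptor, below it, at 7.3 to 7.59 against 8.13 to 9.39 (-0.27, adjusted p = 0.0792). These are RNA levels, and neither protein activation nor cell death was measured on the arrays.

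Trp53, which encodes p53, fell. It was at 0.901, 0.889 and 0.913 in air and 0.654, 0.703 and 0.679 in IQOS (-0.41 ± 0.07; limma adjusted p = 0.0248), with a like level in CS, 0.604 to 0.693. Its call was lost without any 1 of the air or IQOS arrays (adjusted p up to 0.0971). Trp53 was the 1 gene called among p53 and its 25 targets, and the median of the list was -0.04 (between -0.06 and -0.01 without any 1 array). The cell cycle inhibitor Cdkn1a was at 3.97, 7.5 and 3.53 in air and 10.7, 9.14 and 5.56 in IQOS (0.79 ± 0.33; adjusted p = 0.213). The p53 targets Phlda3 (-0.34, adjusted p = 0.112) and Aen (-0.32, adjusted p = 0.152) lay below air on all IQOS arrays and Trp53inp1 (0.45, adjusted p = 0.187) above it, without a call. Of the 2 tested probes of Trp53inp1, however, the dimmer, which does not stand for the gene here, was called higher.

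**Figure D5:**
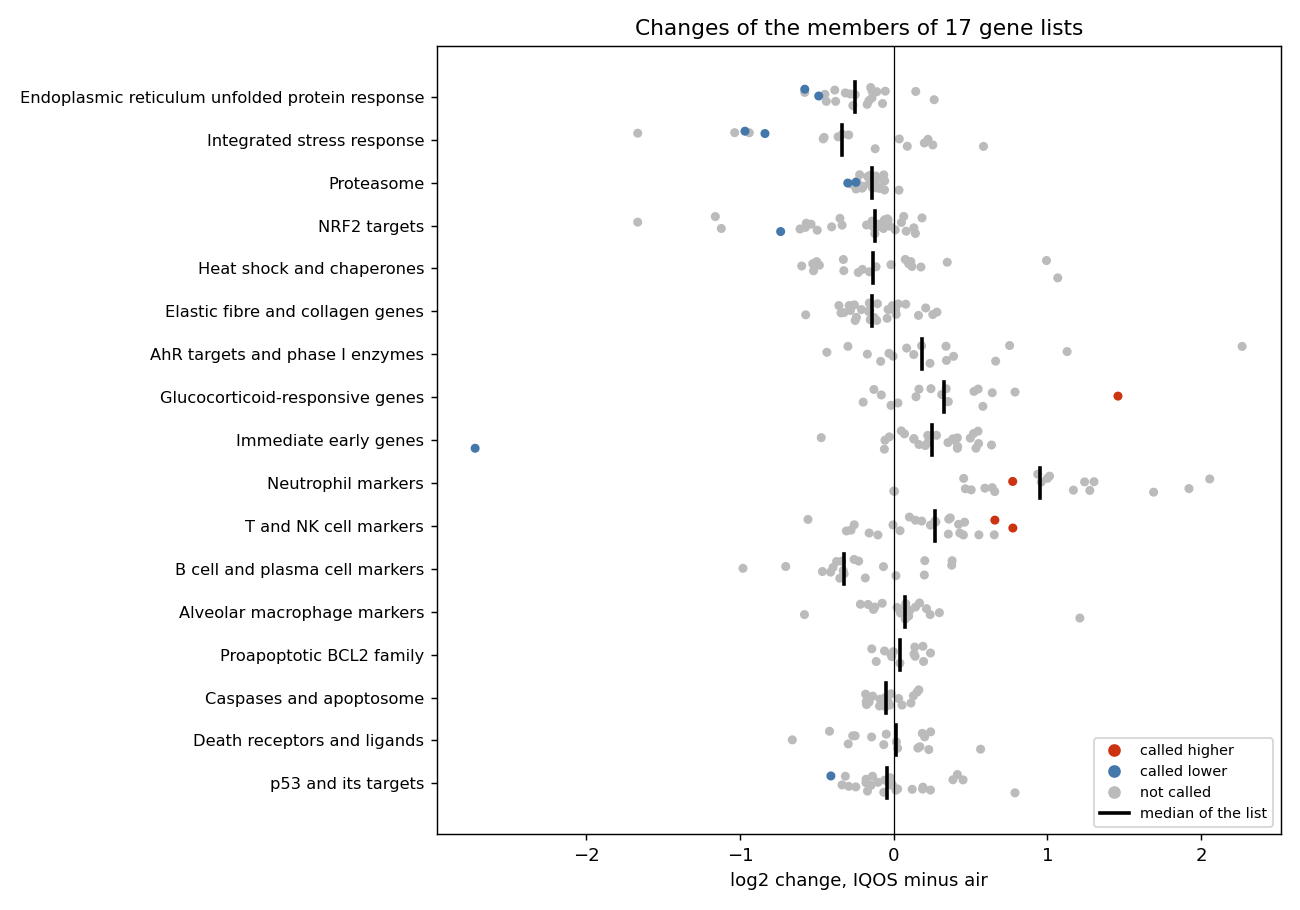
Log2 change between IQOS and air of each tested member of 17 gene lists (points; red called higher, blue called lower, grey not called) with the median of each list (black bar). The ER, integrated stress response and proteasome medians lie at -0.25, -0.33 and -0.14 and the neutrophil median at 0.95, while the cell death lists centre near 0.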

How the data were processed

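Lung RNA was measured on 9 single-colour Agilent arrays, 3 each for air, IQOS and CS. Per the file headers, the authors deposited spot intensity values written by Agilent's Feature Extraction software (version 10.7.1.1 in the submitters' processing notes), with the background already subtracted from the processed signal. The authors also deposited a table whose values proved to be a linear ratio of signal to the 75th percentile of the array. That scale was found from the values and is not given in the sources used here.

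Control spots and spots marked as outliers were left out and spots of a probe averaged. Each log2 processed signal had the log2 75th percentile of its array subtracted. A probe was tested if well above background on every measured array of at least 1 group and measured on at least 2 arrays per group. All 9 arrays entered 1 limma fit (limma 3.58.1, R 4.3.3), which was tested on simulated data, with Benjamini-Hochberg adjustment over 37258 probes and calls at 0.05. For normexp the deposited median signals were used. A gene stands for its tested probe with the highest mean signal. Named genes were the 15 largest called rises and falls without overlap, called members and up to 4 others of smallest p in each described list, and a fixed set. Members and lists were chosen with earlier results of these data known. Alternatives covered background correction, scaling, filters, replicate numbers, array row and leaving out each array. The arrays' number limits the precision. Some genes that the rule names are not reported here.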

Additional observations from a re-analysis of the deposited data

How the results depend on the processing

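The count of probes called between IQOS and air (1387) was 2621 with normexp, 780 with median centring, 356 with no filter on dim probes (85.7% higher in IQOS), 287 with the array row as a covariate (86.1%), 408 from the arrays of the 2 groups alone (83.8%), 3281 at an adjusted p under 0.1 (63.4%), 414 at a minimum of 1.5-fold and 95 at 2-fold. With the replicate block it was 540 (81.7%). After group means were subtracted, same-numbered air and IQOS arrays correlated at 0.079, 0.201 and 0.168. Differently numbered air and IQOS arrays correlated between -0.165 and -0.002, and same-numbered air and CS arrays between -0.079 and -0.041. Same-numbered CS and IQOS arrays correlated at 0.132, 0.009 and 0.161, and differently numbered ones between -0.251 and 0.12. Deviations within a group are bound by its mean, so same-numbered and differently numbered values are not independent. Whether the numbers pair the samples was not tested. Leaving out 1 array gave 125 to 1115 calls. It stayed within 1.5 times with quantile normalization (1225), the stricter filter (1541), the deposited table (1326) and a trended, robust fit (1744). The count between IQOS and CS (3590) was 1658 with no filter, 83 with the array row, 1710 from the arrays of the 2 groups alone, 6523 at 0.1, 1299 at 1.5-fold and 440 at 2-fold, and 1247 to 3201 without 1 array. The array row is estimated from the air arrays alone, since CS and IQOS each lay in 1 row. Air 3 was the only air array in row 2, so for IQOS against air this setting is the same fit as leaving out air 3 (287 probes in both). It is not a separate check of array position. Otherwise the cause of these differences was not tested. The 41 called named genes kept their sign under the settings tried, but 7 of them kept their call under all. The call was lost for 34 without air 1, 30 without IQOS 2, 28 without air 3 (the same fit as the array row), 26 with no filter, 25 from the 2 groups alone, 19 with the replicate block, 10 with the mean of a gene's probes and 4 with normexp. Slide as a block was not run because all IQOS arrays, and no others, lay on the second slide.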

Other observations

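Single members of other lists were called. Ndrg1, a hypoxia-induced gene, rose by 0.46 (log2; limma adjusted p = 0.0438), Stra6, the retinol transporter, by 0.38 (adjusted p = 0.0486), and Chrna2, a nicotinic receptor subunit, by 0.45 (adjusted p = 0.0432). Cd209a, a lectin of dendritic cells, fell by 0.68 (adjusted p = 0.0295), Stard4, a cholesterol transporter, by 0.39 (adjusted p = 0.035), Pdgfa, a growth factor of alveolar fibroblasts, by 0.33 (adjusted p = 0.0408), and Nfkb1, a subunit of NF-kB, by 0.29 (adjusted p = 0.0448). Each was the 1 called gene of its list.

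Of 137 tested olfactory receptor genes, a family chosen after the values were seen, 18 (13.1%) rose and 0 fell, and 1.99% of all genes rose. The difference was not tested. Their median change was 0.28 and their median level 0.0491, where the lowest level well above background was 0.0198 to 0.0282 by array. A dim gene is tested if 1 whole group is above background, so genes high in IQOS could enter by being high. The count of rises is partly set by that filter, and no trait of the family is read from it. Probes placed by genome position were called higher in 7.65% of cases and RefSeq coding probes in 1.42%. The 7452 dimmest tested probes had a median change of 0.09. Slide and exposure cannot be told apart in these values.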
